A study of Mus musculus with 15 samples.

Results

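The Ebf genes (Ebf1, Ebf2, Ebf3 and Ebf4) encode a small family of transcription factors, and their expression was followed in sorted cells of the embryonic mouse thalamus. The members were the genes named alone by a row of the deposited array table, 5 rows in all, and for Ebf2, which had 2 rows, the row with the higher mean was used. They were 4 of 22180 genes so named, and all 4 passed a filter at a mean of 5.07 log2 units, below which the dimmest 25% of genes were left out. The family was chosen by the measured values of Ebf1, which separated double-labelled from green cells at E18.5. For that reason the values of Ebf1 in every comparison that uses those arrays, and all values of double-labelled against green cells, are given as a description with no test.

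All 5 groups shared the genotype Gbx2CreER-IRES-EGFP/+::R26lsl-tdTomato/+ on a c57/BL6 background. EGFP reported activity of the Gbx2 locus, which encodes a homeodomain factor of thalamic neurons, and tdTomato marked cells in which the tamoxifen-dependent Cre from that locus had been active, with their descendants. At E18.5, after 4 mg tamoxifen to the mother at E9, the sorted groups were double-labelled, red and green. At E14.5, after 4 mg at E9.5, they were red and green. Each group had 3 biological replicates, and the labels do not say whether each was 1 embryo or a pool. The labels give no sorting gates, and no unlabelled cells were among the samples used here.

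EBF proteins bind DNA through a zinc-containing domain and pair through a helix-loop-helix motif, so that members can form dimers with each other. The first member was found as a factor of early B lymphocytes and of olfactory neurons. In the mouse brain the family is known for roles in the migration and differentiation of young neurons, among them striatal neurons for Ebf1 and cerebellar Purkinje cells for Ebf2, and in Xenopus a frog Ebf3 acts downstream of the proneural factor NeuroD.

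The labelled tissue was checked by its markers. Tcf7l2, a factor of thalamic neurons, stood at group means of 11.55 to 12.00 log2 units in the 5 groups, and Slc17a6, the vesicular glutamate transporter of thalamic relay neurons, at 10.17 in double-labelled and 10.11 in red cells, against 10.52 in green cells of E18.5. Gbx2 averaged 8.33 ± 0.29 in double-labelled and 6.35 ± 0.86 in red cells, against 8.43 ± 0.17 in green cells at E18.5 (SD, n = 3 each), an order that the sort on EGFP favours. At E18.5 the first replicates of double-labelled and of red cells had a narrow range of values (SD over all genes 1.31 and 1.34), while the remaining 7 arrays had SDs between 1.44 and 1.51. Array means lay between 6.17 and 6.19 at E18.5 and between 5.63 and 5.65 at E14.5, so differences between stages were also read against the median of all genes. No array depth applies, and 3 arrays per group limit the precision of every value. In such pooled sorted cells, fewer cells of a type and less RNA per cell cannot be told apart.

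The sequences before the transcription starts of Ebf1 and Ebf3 are shown because these were the members that differed between red and green cells. They are 250 bases upstream of a start in RefSeq (GRCm38.p6), which holds 2 starts for Ebf1 and 1 for Ebf3. Capitals mark the core of the motif that EBF proteins bind, CCCNNGGG, and the E-box CANNTG of basic helix-loop-helix factors, searched on both strands. These letters were found in 11.8% and 66.2% of 32841 upstream windows of the same length.
Ebf1, first start, chr11:44617850-44618099, plus strand: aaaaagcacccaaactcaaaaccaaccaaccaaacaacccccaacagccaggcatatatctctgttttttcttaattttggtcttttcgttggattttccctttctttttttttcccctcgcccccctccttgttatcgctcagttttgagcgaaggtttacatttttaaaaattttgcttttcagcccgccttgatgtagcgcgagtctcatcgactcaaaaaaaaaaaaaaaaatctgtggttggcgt
Ebf1, second start, chr11:44619978-44620227, plus strand: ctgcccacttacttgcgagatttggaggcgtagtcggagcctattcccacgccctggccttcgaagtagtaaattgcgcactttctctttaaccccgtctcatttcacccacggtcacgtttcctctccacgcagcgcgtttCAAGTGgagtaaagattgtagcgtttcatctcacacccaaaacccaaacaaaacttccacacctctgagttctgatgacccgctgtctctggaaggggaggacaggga
Ebf3, chr7:137314446-137314695, minus strand: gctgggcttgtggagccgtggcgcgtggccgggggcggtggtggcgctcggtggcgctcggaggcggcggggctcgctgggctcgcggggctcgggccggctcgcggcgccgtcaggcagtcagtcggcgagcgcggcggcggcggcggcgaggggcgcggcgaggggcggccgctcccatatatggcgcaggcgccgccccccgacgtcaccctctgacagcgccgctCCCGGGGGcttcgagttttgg
The first Ebf1 window had 40% G and C and held neither motif. The second had 52% G and C and 1 E-box, 108 bases before the start at its outer end. The Ebf3 window had 80% G and C and 1 match to the EBF core, which began 21 bases before the start. The matches describe letters in these windows and no binding was measured.

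Ebf1 (transcript cluster 17248691, chromosome 11) was higher in both tdTomato-marked populations than in green cells at E18.5. It read 8.12, 8.20 and 8.37 log2 units in double-labelled cells and 8.33, 8.11 and 8.08 in red cells, against 6.58, 7.29 and 7.08 in green cells. Every double-labelled and every red array lay above every green array, and green replicate 1 was the lowest of the 9. Double-labelled cells exceeded green cells by 1.25 on the log2 scale, or 2.37-fold, and red cells exceeded green cells by 1.19, or 2.28-fold. Double-labelled and red cells differed by 0.05, less than the SD of either group (0.13 and 0.14), and their arrays overlapped. These differences include the values that chose the family and were not tested, and 8.15% of all genes had double-labelled and green arrays that did not overlap. The difference between double-labelled and green cells was from 1.04 to 1.40 when any 1 array was left out, lowest without green replicate 1.

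The arrays of E14.5 had no part in the choice of Ebf1, and there it was again higher in red cells. It read 9.09, 8.89 and 8.80 in red cells, against 8.44, 8.22 and 8.23 in green cells, and the groups did not overlap. The difference was 0.63 ± 0.16 (SE) on the log2 scale, or 1.55-fold, with an adjusted p of 0.045 in limma over 16635 genes. The spread in that test was estimated from all 15 arrays, so the arrays that chose Ebf1 entered it. Ebf1 was higher in each of the 3 red arrays than in all green ones. Limma called 3.52% of all genes in this comparison, and 27.9% had groups that did not overlap. The call stood close to the threshold. It was lost without each of the 6 E14.5 arrays (adjusted p 0.060 to 0.213), without any one of 5 of the 9 E18.5 arrays (red replicates 2 and 3, green replicate 3, double-labelled replicates 2 and 3; adjusted p 0.055 to 0.064), and after quantile normalization (adjusted p 0.053).

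**Figure D1:**
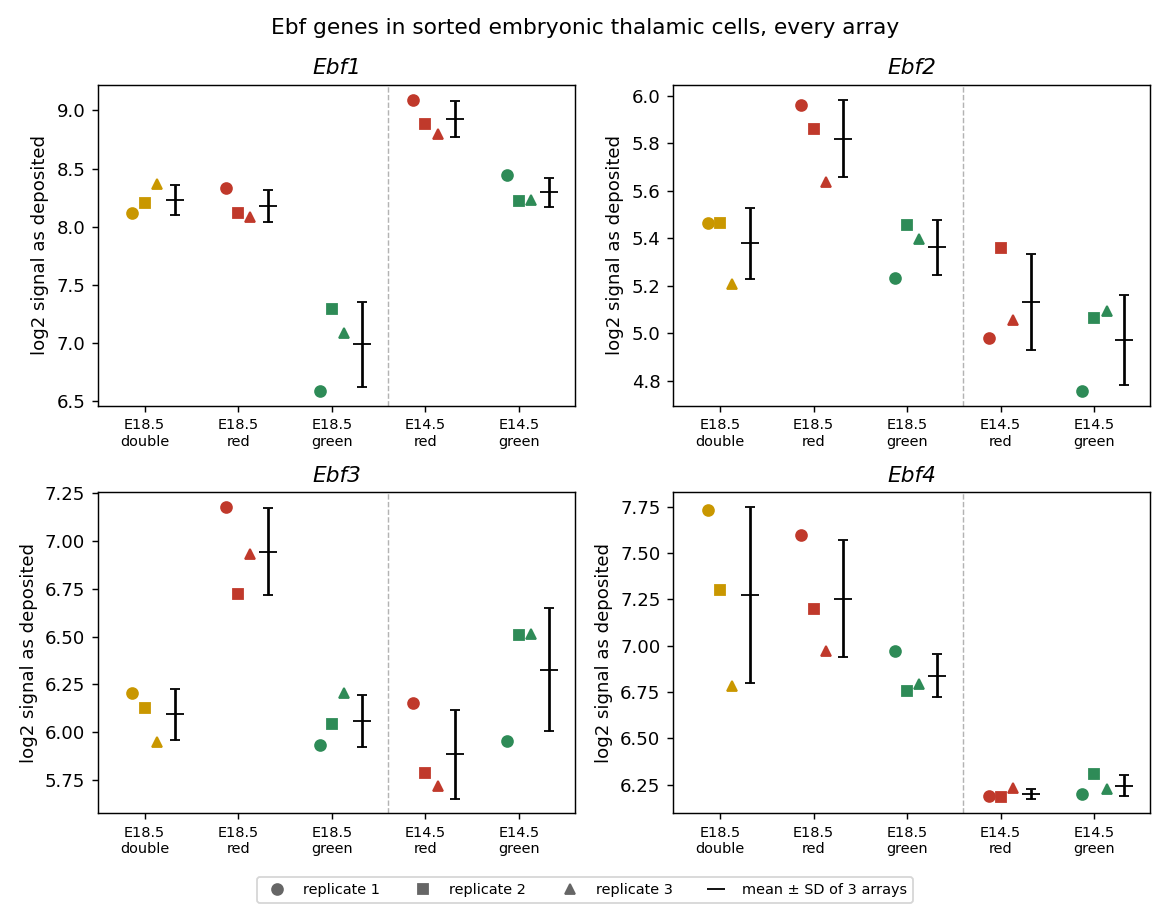
Log2 signal as deposited of Ebf1, Ebf2, Ebf3 and Ebf4 in each of the 15 arrays, with E18.5 double-labelled, red and green cells left of the dashed line and E14.5 red and green cells right of it; marker shapes give the replicate number and bars the mean ± SD of 3 arrays, and each panel has its own vertical range. Ebf1 is low in the 3 E18.5 green arrays, and Ebf3 is high in the 3 E18.5 red arrays.

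Ebf3 (transcript cluster 17497366, chromosome 7) was higher in red cells at E18.5, and there double-labelled cells had levels like those of green cells. It read 6.21, 6.13 and 5.95 in double-labelled cells and 7.18, 6.72 and 6.93 in red cells, against 5.94, 6.04 and 6.21 in green cells. All red arrays lay above the other 6, while the double-labelled and green arrays overlapped, with means of 6.09 ± 0.13 and 6.06 ± 0.14 (SD, n = 3 each). Red cells exceeded green cells by 0.88 ± 0.17 (SE), or 1.84-fold, with an adjusted p of 0.030 in limma. Of the 3 members tested in this comparison Ebf3 was the 1 called, where limma called 0.613% of all genes. The adjusted p was 0.113 without red replicate 1, 0.069 without red replicate 3, and 0.149, 0.138 and 0.070 without green replicates 1, 2 and 3. It was 0.055 without both arrays of narrow range, 0.114 when only E18.5 arrays were fitted and 0.292 with 1 weight per stage.

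Double-labelled cells had lower Ebf3 than red cells by 0.85 ± 0.17 (SE) on the log2 scale, or 1.80-fold, and their groups did not overlap, which held for 4.18% of all genes. The adjusted p in limma was 0.125 without a block, and limma called 0.0902% of all genes. Red and double-labelled arrays of the same replicate number deviated from their group means together, but the labels do not say that they share a source. With that number as a block over all groups the adjusted p was 0.051, and with the block kept to these 2 groups, a fit chosen after the values were seen, it was 0.0063.

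At E14.5 the mean of Ebf3 was lower in red cells, without passing the test. It read 6.15, 5.79 and 5.72 in red cells, against 5.95, 6.51 and 6.52 in green cells. Red replicate 1 lay above green replicate 1, so that the groups overlapped, and the difference of -0.44 ± 0.17 (SE) did not pass the threshold (adjusted p 0.273 in limma). The change of the red-green difference between stages was itself tested. It was 1.32 ± 0.24 (SE) on the log2 scale (95% interval 0.80 to 1.85), with an adjusted p of 0.016 in limma, where 1.05% of all genes were called. The adjusted p was 0.053 without E18.5 green replicate 1, 0.054 without E14.5 red replicate 2, and 0.060 and 0.063 without E14.5 green replicates 2 and 3. It stayed under the threshold without any of the other 11 arrays.

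**Figure D2:**
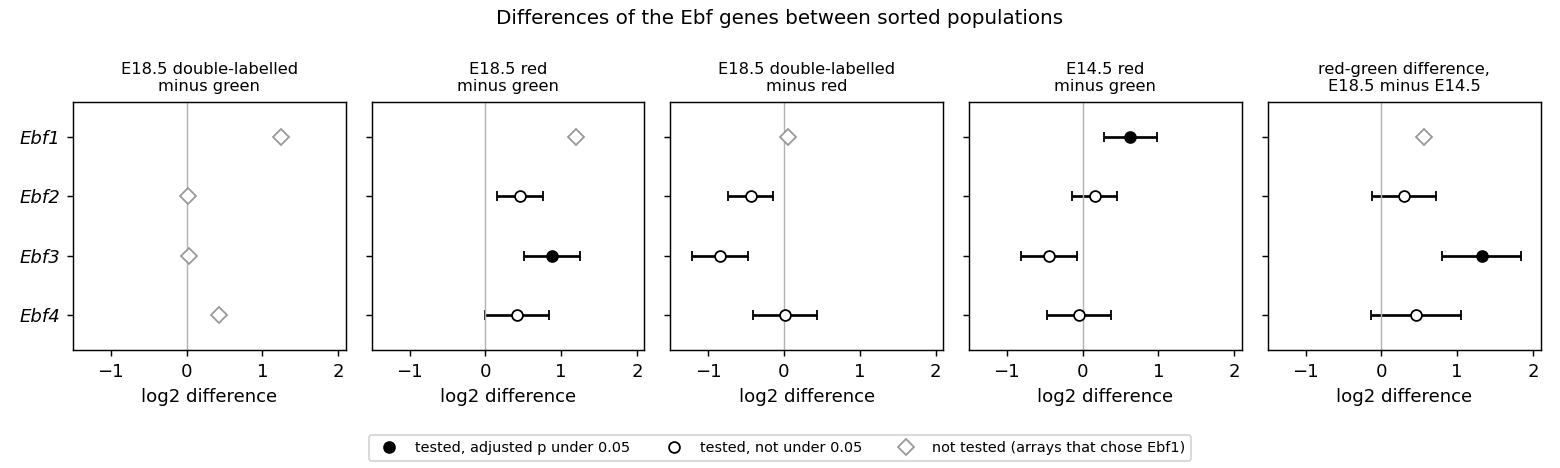
Log2 differences of the 4 Ebf genes between sorted populations, first-named minus second-named, with 95% intervals from limma on the tested ones; filled circles had an adjusted p under 0.05, open circles did not, and grey diamonds, without an interval, were not tested because those arrays chose Ebf1. Ebf1 is the 1 filled circle at E14.5 (0.63), and Ebf3 is filled in E18.5 red minus green (0.88) and in the change between stages (1.32).

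Ebf2 (transcript cluster 17301536, chromosome 14) had signals near the lower end of the array's range. At E18.5 it read 5.46, 5.46 and 5.20 in double-labelled and 5.96, 5.86 and 5.64 in red cells, against 5.23, 5.46 and 5.39 in green cells. The red arrays lay above all others of the stage, and double-labelled and green cells differed by 0.02, well within their SDs of 0.15 and 0.12. Red cells exceeded green cells by 0.46 ± 0.14 (SE), and double-labelled cells were below red cells by 0.44 ± 0.14 (SE). Neither difference passed the threshold in limma (adjusted p 0.240 and 0.679, and 0.213 and 0.076 with the block on red and double-labelled arrays). At E14.5 red cells read 4.98, 5.36 and 5.05, against 4.75, 5.06 and 5.09 in green cells, and the groups overlapped. The second Ebf2 row (transcript cluster 17307963) lay lower still, at means of 4.83 ± 0.21 in double-labelled and 4.98 ± 0.23 in red, against 4.81 ± 0.10 in green cells of E18.5. These groups overlapped.

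Ebf4 (transcript cluster 17376278, chromosome 2), the least studied of the family, spread widely at E18.5 within double-labelled and red cells (SD 0.48 and 0.32). It read 7.73, 7.30 and 6.78 in double-labelled cells for replicates 1, 2 and 3, and 7.59, 7.20 and 6.97 in red cells, against 6.97, 6.76 and 6.79 in green cells. Replicate 1 was the highest array of each of the 3 populations, and in red and double-labelled cells it was the array with the narrow range of values. Red cells exceeded green cells by 0.41 ± 0.20 (SE; adjusted p 0.507 in limma). Double-labelled and red cells differed by 0.02 (95% interval -0.40 to 0.44), and the sign turned to -0.042 without the narrow-range arrays. At E14.5 all 6 arrays lay between 6.18 and 6.31, with red minus green at -0.04 (95% interval -0.47 to 0.38).

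The 4 members together did not move as one. In E18.5 red against green cells all 4 were higher and had groups that did not overlap. Such an upward separation was found in 6.14% of all genes. For Ebf4 the groups barely parted, with the lowest red array at 6.9696 and the highest green array at 6.9679. The Ebf4 groups overlapped after quantile normalization. Ebf1 is among the 4 through the arrays that chose it. In double-labelled cells Ebf1 stood with red cells, while Ebf2 and Ebf3 stood with green cells. The Ebf4 mean was 7.27 in double-labelled and 7.25 in red cells, against 6.84 in green cells, but its double-labelled arrays overlapped both other groups. Over the 9 E18.5 arrays Pearson's r was 0.91 between Ebf2 and Ebf3 and 0.48 between Ebf1 and Ebf3. The other pairs were positive there as well, from 0.43 to 0.52. Over the 6 E14.5 arrays r was -0.10 between Ebf2 and Ebf3 and -0.67 between Ebf1 and Ebf3. The other pairs ran from -0.67 to 0.59 at that stage. These values share arrays and populations and are given as a description.

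Stage was examined within red and within green cells. All E18.5 arrays had tamoxifen at E9 and all E14.5 arrays at E9.5, so stage and the day of labelling cannot be told apart in any of these differences, the change of the Ebf3 red-green difference included. As deposited, the median of all 16635 genes was 0.60 higher at E18.5 in red and 0.61 higher in green cells, limma called 72.4% of all genes in red cells (71.3% higher), and levels were therefore read against that median and after quantile normalization of all arrays. Ebf1 in red cells averaged 8.18 ± 0.14 at E18.5, against 8.93 ± 0.15 at E14.5 (SD, n = 3 each), and the groups did not overlap. It fell by 0.75 on the log2 scale as deposited (SE 0.16, adjusted p 9.8e-04 in limma), which is 1.35 below the median of all genes. After quantile normalization it fell by 1.33, or 2.51-fold (adjusted p 2.0e-04), where limma called 27.6% of all genes in either direction and 14.9% lower. The call held without any 1 of the 15 arrays. As deposited, 1.06% of all genes were called lower in red cells, and 1.48% had a later stage wholly below the earlier. In green cells Ebf1 averaged 6.98 ± 0.36 at E18.5, against 8.30 ± 0.13 at E14.5. The difference was -1.31 as deposited and -1.94 after quantile normalization, a description only, since the E18.5 green arrays chose the gene.

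The stage differences of the other members lay nearer the median of all genes or on either side of it. Ebf3 averaged 6.94 ± 0.23 at E18.5 against 5.89 ± 0.23 at E14.5 in red cells, and 6.06 ± 0.14 at E18.5 against 6.33 ± 0.32 at E14.5 in green cells. Set against the median of all genes it was 0.46 higher in red and 0.87 lower in green cells. After quantile normalization the fall in green cells was called (-0.89, adjusted p 0.0014 in limma, with 33.9% of all genes called), and the difference in red cells was 0.44 (adjusted p 0.077). As deposited, the green difference of -0.27 was not called (adjusted p 0.171, with 73.5% of all genes called). Ebf2 and Ebf4 were called higher at E18.5 in red cells as deposited, by 0.69 and 1.05, but not after quantile normalization (0.03 and 0.45, adjusted p 0.904 and 0.217). In green cells they were called higher as deposited, by 0.39 and 0.59, and their sign turned to -0.19 and -0.087 after quantile normalization, with neither called.

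**Figure D3:**
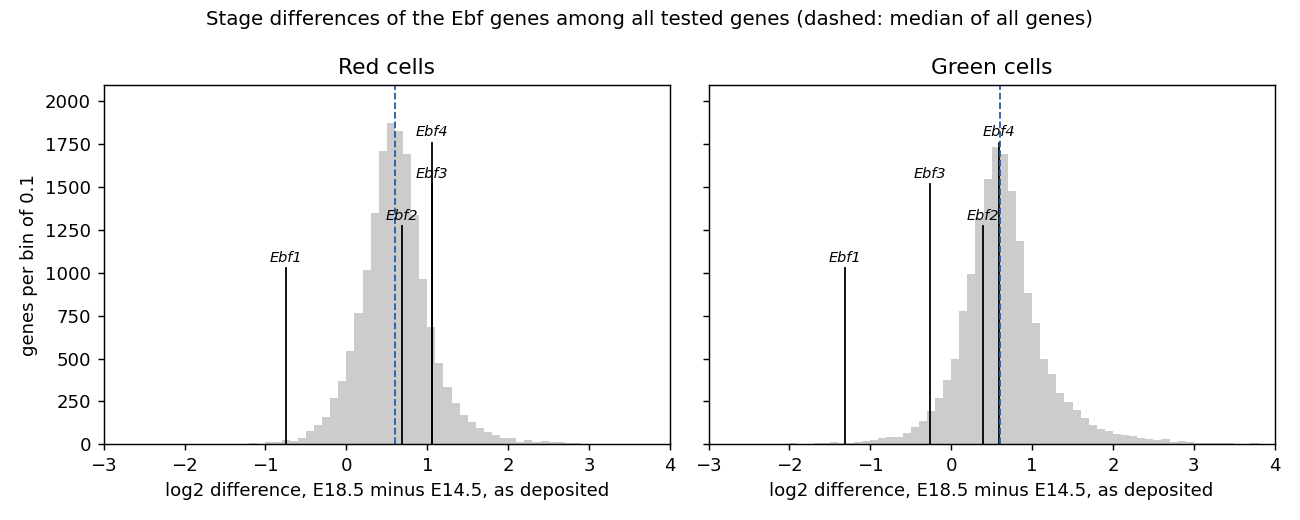
Number of genes in bins of the log2 difference between E18.5 and E14.5 as deposited, in red cells (left) and green cells (right), with the 4 Ebf genes as vertical lines of arbitrary height and the median of all genes dashed (0.60 and 0.61). Ebf1 lies left of the other 3 Ebf genes in both panels (-0.75 and -1.31), and Ebf3 lies right of the median in red cells and left of it in green cells.

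The genes most like Ebf1 were sought by Pearson's r over the 15 arrays after each stage's mean was subtracted. They were Qk, an RNA-binding regulator of splicing (r = 0.94), Vgf, a neuropeptide precursor (0.93), Crhr1, the receptor of corticotropin-releasing hormone (0.90), the POU-domain factor Pou2f2 (0.89) and Lef1, a nuclear effector of Wnt signalling (0.88). Over the 9 E18.5 arrays alone Qk and Vgf were again the closest (0.96 and 0.94), and the other 3 were not among the first 5. Qk averaged 7.92 ± 0.06 in double-labelled and 8.08 ± 0.23 in red cells, against 7.26 ± 0.24 in green cells of E18.5. At E14.5 it averaged 7.63 ± 0.23 in red cells, against 7.23 ± 0.14 in green cells. Unlike Ebf1, Vgf was higher at the later stage, at 9.54 ± 0.18 in red cells of E18.5 against 6.90 ± 0.24 at E14.5.

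The genes most like Ebf3 were the forkhead factor Foxa1 (r = 0.85), the synaptic scaffold gene Homer2 (0.82), the nicotinic receptor subunit Chrnb3 (0.82), Nav2 (0.82) and Dcdc2a (0.82). Over the 9 E18.5 arrays the first 5 were all different, led by Aldh1a1, a retinaldehyde dehydrogenase (0.98). Foxa1 averaged 6.79 ± 0.34 in red cells, against 5.62 ± 0.11 in green cells at E18.5, and 4.92 ± 0.11 in red cells, against 5.65 ± 0.38 in green cells at E14.5. Its mean, like that of Ebf3, was higher in red cells at the later stage and lower in them at the earlier one. Foxa1 was picked for its likeness to Ebf3 on these arrays, so a shared pattern largely follows from the choice. All these values come from arrays shared by the genes compared.

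**Figure D4:**
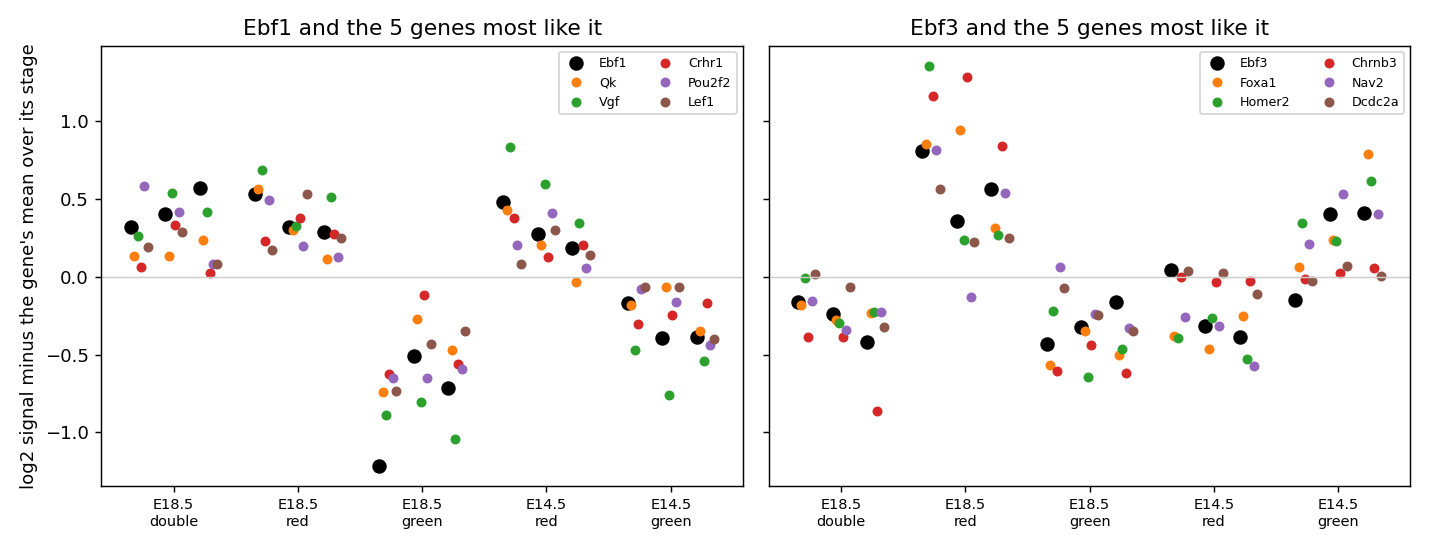
Log2 signal minus the gene's mean over its stage in each of the 15 arrays, 3 arrays per group, for Ebf1 with the 5 genes most like it (left) and Ebf3 with its 5 (right); large black points are the Ebf gene. On the left all genes are low in E18.5 green cells, and on the right most are high in E18.5 red cells. The genes were picked for likeness to the Ebf gene on these arrays.

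Factors that act with EBF proteins were listed next. Of 9 cofactors, E proteins and Id proteins tested, 0 passed between red and green cells at E18.5 (3 at unadjusted p under 0.05). Limma called 0.613% of all genes in that comparison. The median difference of the list was 0.13 against -0.01 for all genes. The share of all genes at unadjusted p under 0.05 is not given, here or below. Counts at that level therefore cannot be read as a result about a list. Zfp423, a zinc finger protein that binds EBF proteins, had means between 8.50 and 8.68 in all 5 groups. Zfp521, its relative and an inhibitor of Ebf1 in B-lineage cells, fell with stage as Ebf1 did. It averaged 8.23 ± 0.14 at E18.5 against 9.38 ± 0.11 at E14.5 in red cells, a difference of -1.15 (adjusted p 1.4e-06 in limma, and -1.70 after quantile normalization). In green cells it averaged 8.48 ± 0.06 at E18.5 against 9.30 ± 0.09 at E14.5 (-0.82, adjusted p 1.3e-05). The E protein genes Tcf12 (-0.98, adjusted p 1.1e-04) and Tcf4 (-0.44, adjusted p 0.043) were lower at E18.5 in green cells too. In all, the list had 3 higher and 1 lower between stages in red cells and 4 higher and 3 lower in green cells as deposited, and 0 higher with 4 and 5 lower after quantile normalization. The higher ones as deposited were Id1, Id2 and Id3 in both populations (0.41 to 1.29) and Id4 in green cells (0.38), beside a median of all genes of 0.60 and 0.61. Limma called 71.3% of all genes higher and 1.06% lower in red cells as deposited, and 73.5% in either direction in green cells. After quantile normalization it called 14.9% lower in red cells and 33.9% in either direction in green cells. At E14.5 the list had 1 member called higher in red against green cells, where limma called 3.52% of all genes. It was Id2, an inhibitor of basic helix-loop-helix factors (6.84 ± 0.40 against 5.59 ± 0.30 in green cells, adjusted p 0.036 in limma). The median difference of the list was -0.07.

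Proneural and neuronal helix-loop-helix factors, which act upstream of Ebf genes in several settings, were listed for the same populations. The list and its counts also held Insm1, a zinc finger factor outside that family. Of 12 listed 10 were tested. At E18.5, where limma called 0.613% of all genes, 0 passed in red against green cells and 0 had an unadjusted p under 0.05. At E14.5, where Ebf1 was called higher in red cells and limma called 3.52% of all genes, 2 passed and both were lower in red cells. At that stage 5 had an unadjusted p under 0.05, a level without a share of all genes beside it, and the list had a median difference of -0.35. Nhlh1, a factor of newly formed neurons, averaged 4.89 ± 0.28 in red cells, against 7.41 ± 0.46 in green cells (adjusted p 1.1e-05), and its red-green difference changed between stages by 2.49 (adjusted p 6.0e-04). Neurod1 averaged 5.03 ± 0.13 in red cells, against 5.66 ± 0.27 in green cells (adjusted p 0.017). Between stages the list moved both ways as deposited, with 4 higher and 1 lower in red cells and 4 higher and 3 lower in green cells. After quantile normalization these counts were 0 higher and 3 lower in red cells and 0 higher and 6 lower in green cells. The 4 higher as deposited were Insm1 (0.86 in red and 0.88 in green cells), Neurog1 (0.51 and 0.54), Neurog3 (0.49 and 0.74) and Hes6 (0.42 and 0.39), beside a median of all genes of 0.60 and 0.61. Of all genes, limma called 71.3% higher and 1.06% lower in red cells as deposited, and 73.5% in either direction in green cells. After quantile normalization it called 14.9% lower in red cells and 33.9% in either direction in green cells. Neurog2 fell with stage in both populations, by 0.64 in red and by 1.18 in green cells (adjusted p 0.0017 and 1.4e-05), the same sign as Ebf1 in both. Nhlh1 and Nhlh2 fell in green cells by 2.51 and by 0.99 (adjusted p 3.2e-07 and 7.6e-04). All of these falls kept their sign after quantile normalization. That step moved the median of all genes down to -0.03 in both populations, so the kept sign adds no support.

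Known targets of the family in other tissues were listed as well, and many were too dim to test. Of all genes, limma called 0.613% between red and green cells at E18.5 and 3.52% at E14.5. Of 4 olfactory genes with EBF sites 2 were tested. Gnal, the G protein subunit of odorant signalling, was higher in red cells at E14.5 (7.05 ± 0.03 against 6.20 ± 0.20 in green cells, adjusted p 0.0020), and Omp, the olfactory marker protein, was not called (5.17 ± 0.09 against 5.11 ± 0.11). At E18.5 Gnal averaged 8.85 ± 0.15 in double-labelled and 8.82 ± 0.21 in red cells, against 8.77 ± 0.06 in green cells (red minus green 0.05, adjusted p 0.875 in limma). Of 16 B-lymphocyte targets and partners 7 were tested, and 0 passed between red and green cells at E18.5 (2 at unadjusted p under 0.05) or at E14.5 (0 at unadjusted p under 0.05).

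Genes of other cell groups in which Ebf genes act were mixed. Of all genes, limma called 0.613% in red against green and 0.0902% in double-labelled against red cells at E18.5. For red against green cells at E14.5 the share was 3.52%, and for the change between stages 1.05%. A count of 0 in a list this short is near such shares. Of 9 midbrain dopamine neuron factors, 3 were higher in red than green cells at E18.5, namely Th, which makes the precursor of dopamine (log2 difference 2.01), Nr4a2, a nuclear receptor (1.26), and Foxa1 (1.18), and the median was 0.60 against -0.01 for all genes. In double-labelled against red cells 2 were lower, Th (-1.72) and Nr4a2 (-1.13). The red-green difference of Th and of Foxa1 changed between stages by 2.03 and 1.91 (adjusted p 4.0e-05 and 0.0019). At E14.5 Foxa1 was lower in red cells (-0.73, adjusted p 0.041). At E18.5 these genes thus moved in the direction of Ebf3, and their part in its result was not tested. Foxa1 is also the gene picked above as most like Ebf3, so its direction adds nothing separate. Of 6 Cajal-Retzius genes 2 were lower in red cells at E18.5, Calb2, which encodes calretinin (-2.41), and the extracellular protein Reln (-0.72). Calb2 was higher in double-labelled than in red cells (1.51, adjusted p 0.0047), and its red-green difference changed between stages by -3.09 (adjusted p 9.9e-05). Of 8 striatal genes 0 passed at E18.5 (3 at unadjusted p under 0.05), and Meis2, a homeodomain factor, was higher in red cells at E14.5 (0.81).

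Ebf1 is also strongly expressed by pericytes, so markers of other cells were read beside it. Between red and green cells limma called 0.613% of all genes at E18.5 and 3.52% at E14.5. Between double-labelled and red cells the share was 0.0902%. In lists this short a count of 0 is near such shares and is no result about a cell type. The mean level of 10 pericyte and mural genes ranged from 5.84 to 6.01 in double-labelled and from 5.72 to 5.98 in red cells, against 5.84 to 5.96 in green cells of E18.5. It ranged from 4.99 to 5.08 in red cells, against 4.96 to 5.02 in green cells at E14.5. Of these 10 genes 0 passed between red and green cells at either stage, with 1 at unadjusted p under 0.05 at each. At E18.5 it was Rgs5, a regulator of G protein signalling, which was lower in red cells (-0.94, adjusted p 0.238 in limma). At E14.5 it was the potassium channel gene Kcnj8, higher in red cells as Ebf1 was (0.39, adjusted p 0.091, and 0.052 after quantile normalization). Both were named after their values were seen, and their part in the Ebf1 result was not tested. Of 5 endothelial, 3 meningeal and 5 microglial genes tested, 0 passed in red against green cells at either stage, nor did any of 3 B-lymphocyte genes. At E18.5 the numbers at unadjusted p under 0.05 were 0, 0, 0 and 1, and at E14.5 all were 0. Of 9 thalamic neuron genes, Gbx2 and the LIM-homeodomain factor Lhx9 were lower in red cells at E18.5, and the mean of the list ranged from 9.42 to 9.65 in red cells, against 9.99 to 10.11 in green cells. Gbx2 was higher in double-labelled than in red cells (1.97, adjusted p 0.018). The sort on EGFP, which reports the Gbx2 locus, favours both of these Gbx2 differences. Of 6 prethalamic and GABAergic genes and 7 progenitor genes 0 passed at E18.5, with 3 of each at unadjusted p under 0.05, and the progenitor factor Sox2 was called higher after quantile normalization (0.73). At E14.5 Rora, a nuclear receptor of thalamic neurons (1.06), was higher and the LIM-homeodomain factors Lhx2 (-1.03) and Lhx9 (-0.89) lower in red cells, Lhx2 without a call after quantile normalization. The glutamate decarboxylase gene Gad2 (0.82) and the glutamate transporter Slc1a3 (1.01) were higher and Nes, an intermediate filament of progenitors (-0.54), was lower in red cells of that stage. The part of these genes in the Ebf results was not tested.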

How the data were processed

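Expression was measured in 15 samples of sorted thalamic cells on Affymetrix arrays. The authors deposited log2 signal for each transcript cluster, ranging from 4.15 to 13.2. Per the labels, biotinylated cDNA was made from 10 ng of RNA (Nugen Ovation Pico WTA), and the submitters' processing notes name Affymetrix Expression Console, whose version and algorithm are not given in the sources used here.

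Of 33794 rows 23521 named 1 gene. Genes were named by the platform annotation, all 4 Ebf genes matched RefSeq by Entrez identifier, and for genes with several rows the row with the highest mean was used. Limma 3.58.1 in R 4.3.3 fitted a mean per group over the 15 arrays (10 residual degrees of freedom, 13.9 after moderation), with Benjamini-Hochberg adjustment over 16635 genes and a threshold of 0.05. The code of the fit was run on simulated arrays with independent noise and 1 spread per gene. Those lacked the shared deviations and narrow-range arrays of the data, so the run does not bear on how firm the calls are. Figures were drawn with Python 3.11.15 and matplotlib 3.10.9. Alternatives were quantile normalization, other filters, the mean over rows, 1 stage alone, stage weights, a replicate block, and leaving out arrays.

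The rule named the 4 members, the 5 genes most like a member, and up to 4 members of a list past the threshold in a comparison. The text gives these between sorted populations and, between stages, for the cofactor and helix-loop-helix lists; stage calls of the other lists are not given. After the values were seen, a few list members that did not pass were named for their role. The members and lists were chosen with earlier results of these data known. Of 5 erythroid genes listed, 0 were named alone by a row, and they were not analysed here. Same-numbered red and double-labelled E18.5 arrays correlated in their deviations from group means at 0.49 to 0.67, the highest between the 2 narrow-range arrays. Unlike-numbered arrays of these groups reached 0.43. The labels do not say that equal numbers share a source, so the pairing of these groups is an assumption. With green cells, same-numbered E18.5 arrays correlated at 0.06 to 0.46 (red) and 0.05 to 0.41 (double-labelled). Red and green arrays of E14.5 did so at 0.07 to 0.27. Sequences came from RefSeq.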

Additional observations from a re-analysis of the deposited data

Results flagged for a closer look

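The red-green difference of Ebf3 changed between the stages by 1.32 on the log2 scale, from a test of the difference itself (adjusted p 0.016 in limma). It was 0.88 at E18.5, where red cells were higher, and -0.44 at E14.5, where they were lower without passing the threshold. Stage and the day of tamoxifen cannot be told apart in this change. Over all settings without 1 array the change was from 1.21 to 1.51, and 11 of 15 such fits had an adjusted p under 0.05. Groups of 3 arrays were not searched for single outlying arrays.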

How the results depend on the processing

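Of 458 values of tested members under the alternatives, 416 kept their direction and side of the threshold, 33 lost the call, 3 gained one and 6 turned sign. Between red and green cells at E18.5, 1 of 3 tested members was called (Ebf3), against 0 without the 2 narrow-range arrays, when 1 stage alone was fitted and with 1 weight per stage, and 0 to 1 without single arrays. At E14.5, 1 of 4 was called (Ebf1), against 0 after quantile normalization, 0 with no filter on low values, 0 with the block on red and double-labelled arrays, and 0 to 1 without single arrays. Between stages 4 members were called in red cells, against 1 after quantile normalization. In green cells 2 of 3 tested were called, against 1 after quantile normalization, 1 with the stricter filter on low values, 1 with the mean of all rows, where Ebf2 was no longer tested, and 1 to 2 without single arrays. The sign turned for Ebf2 (-0.19) and Ebf4 (-0.087) in green cells after quantile normalization. For Ebf4 in double-labelled against red cells it turned to -0.042 without the narrow-range arrays, within a range of -0.21 to 0.26 without single arrays. The change of the red-green difference had 1 member called, and 0 to 1 without single arrays.

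With replicate number as a block within stage, 0 of 3 members were called in double-labelled against red cells, as without it. With the block on red and double-labelled arrays alone, the pair of groups whose numbers deviate together and a setting added after the values were seen, 1 was called (Ebf3). Neither block changed another call of a member apart from Ebf1 at E14.5 under the second. Over all genes, the called numbers moved more: 102 in E18.5 red against green (12 to 232 over the alternatives), 15 in double-labelled against red (4 to 108), 586 in E14.5 red against green (247 to 1703) and 175 for the change between stages (76 to 486). In red cells 12041 genes were called between stages (4586 to 16111), and in green cells 12226 (5643 to 15901). In lists of genes most like a member, Ebf1 shared 2 of 5 genes between 15 and 9 arrays, Ebf2 shared 1, and Ebf3 and Ebf4 shared 0. The cause of these dependencies was not tested. Low signal limits Ebf2 most: its mean was 5.33, near the filter at 5.07.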

Other observations

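The genes most like Ebf2 and Ebf4 over the 15 arrays, after each stage's mean was subtracted, belonged to no list used here. For Ebf2 they were Cd177 (r = 0.88), Edaradd (0.88), Mfsd12 (0.86), the phosphodiesterase Pde2a (0.86) and the troponin Tnnt3 (0.85). For Ebf4 they were Gipr, the receptor of the incretin GIP (0.93), Smim3 (0.93), Fam83g (0.93), Ppp1r3d (0.93) and Foxj1, a forkhead factor of ciliated cells (0.92).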
